A study of Mus musculus with 35 samples.

Results

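The genes described here are 10 components of fibroblast growth factor (FGF) signaling, taken by name from a list: the ligands Fgf4, Fgf8, Fgf9, Fgf15 and Fgf17, the receptor Fgfr1, the feedback inhibitors Spry2, Spry4 and Dusp6, and the target transcription factor Etv4. All 10 were found by symbol in each of 3 RNA-seq tables, which hold 17948, 18091 and 17705 genes. All 10 passed the filter of a mean normalized count of at least 10 over all samples of each table. The list was chosen with earlier results of these data known. Member counts and medians set beside those of all genes are therefore descriptions and not independent tests. The study asked which changes in mouse embryonic stem cells (ESCs) differentiating to neuroectoderm (NE) follow from loss of the catalytic activity of TET3 and which from loss of the whole protein. TET3 is a dioxygenase that oxidizes 5-methylcytosine in DNA.

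FGF ligands bind FGF receptors together with heparan sulfate on the cell surface and activate the RAS, RAF, MEK and ERK kinase cascade. ERK then induces ETS factors of the Etv family as well as its own inhibitors, so that Sprouty and Dusp6 transcripts are widely read as markers of FGF and ERK activity. In ESCs, autocrine FGF4 acts through FGFR1 to let the cells leave the naive pluripotent state, and FGF signals are later used in neural and mesodermal patterning.

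Male v6.5 ESCs of mixed 129/B6 background were compared as wild type (Tet3+/+), homozygous for substitutions in the iron-binding site of TET3 (Tet3m/m) and homozygous for a deletion of a coding exon of Tet3 (Tet3-/-). All groups were differentiated by LIF withdrawal with 1 µM retinoic acid (RA). The first experiment sampled untransfected cells after 72 h, here called day 3, in 3 Tet3+/+, 3 Tet3m/m and 2 Tet3-/- samples. Each of these is a separate clone by the study's description. The second, here called the Dnmt1 experiment, transfected ESCs of each genotype with an empty vector or a vector for the maintenance methyltransferase DNMT1, followed by drug selection, with 2 samples per genotype and vector. The third, here called the Tet3-CD experiment, transfected differentiating cells with an empty vector or the TET3 catalytic domain (Tet3-CD) and has 1 library per genotype and vector, so that it gives ratios without a test. By the study's description the Tet3-CD cells were collected later in differentiation than the cells of the other experiments. The labels give 72 h for all samples. Nothing in the labels says whether the paired samples of the Dnmt1 experiment are separate clones or cultures. The p-values of the Dnmt1 experiment therefore measure only the spread between these samples.

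The values are read counts divided by a size factor for each library (normalized counts), and the 3 tables were normalized separately, so that levels are compared within a table only. The reads recovered per library numbered between 36594650 and 47710548 for day 3. The Dnmt1 libraries held between 31155842 and 50845950, and the Tet3-CD libraries between 33475041 and 37707719. Tet3 itself was at 4613, 4576 and 5020.0 in Tet3+/+, 2666, 2277 and 1945 in Tet3m/m and 1796 and 2329 in Tet3-/- on day 3. In the empty-vector libraries transfected for the Dnmt1 comparison it was at 2957 and 3075 in wild type, 1125 and 964 in the catalytic mutant and 2520.3 and 2571 in the knockout. Whole-gene counts resolve neither the substitutions nor the deleted exon, so this does not check the Tet3-/- label. Dnmt1 was higher with its vector in each genotype, at 22799 and 23768 against 14678 and 15225 in Tet3+/+, 20244 and 23211 against 11934 and 11285 in Tet3m/m and 33380.5 and 39854 against 17356 and 17554 in Tet3-/-. Of 12 neural markers, none was at 0 in all samples of any group. These are bulk samples, so fewer cells of a type and less RNA per cell cannot be told apart.

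Per kilobase of annotated exon, Dusp6, Fgfr1 and Spry2 were the most abundant of the 10 in wild-type day 3 cells. Dusp6, a phosphatase that inactivates ERK, averaged 1383 ± 174 normalized counts per kb (SD, n = 3), Fgfr1 1169 ± 75 and Spry2 464 ± 23.7. The samples of Dusp6 and Fgfr1 overlapped on this scale. Fgf15 followed at 172 ± 57.3, Etv4 at 105 ± 29.1 and Fgf4 at 55.8 ± 19, and Fgf15 and Etv4 overlapped. Spry4 at 34.7 ± 11.9, Fgf9 at 31.4 ± 9.15 and Fgf17 at 27.6 ± 7.08 could not be ordered beyond their spread, Fgf4 overlapped Spry4, and Fgf8 was the lowest at 6.65 ± 1.67. In the empty-vector wild-type cells of the Dnmt1 experiment, Fgf4 instead came next after Spry2, at 232 ± 7.95 (SD, n = 2), and Fgf9 was the lowest at 12.4 ± 2.87.

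The promoters of 4 members had an entry in the RefSeq-based reference table (build GRCm38.p6), and all 4 are shown because each of these genes was called in a comparison below and because cytosines in CG dinucleotides are the substrate that TET3 and DNMT1 share. Each is the 250 bases before the annotated start, read 5′ to 3′ along the gene, with CG dinucleotides in capitals.
Fgf4 chr7:144861136-144861385 (+ strand): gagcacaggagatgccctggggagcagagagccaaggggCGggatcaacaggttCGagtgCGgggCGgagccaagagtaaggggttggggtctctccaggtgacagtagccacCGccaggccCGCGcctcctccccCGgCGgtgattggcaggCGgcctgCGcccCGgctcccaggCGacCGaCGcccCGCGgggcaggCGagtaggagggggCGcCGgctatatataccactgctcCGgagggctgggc
Fgf9 chr14:58072436-58072685 (+ strand): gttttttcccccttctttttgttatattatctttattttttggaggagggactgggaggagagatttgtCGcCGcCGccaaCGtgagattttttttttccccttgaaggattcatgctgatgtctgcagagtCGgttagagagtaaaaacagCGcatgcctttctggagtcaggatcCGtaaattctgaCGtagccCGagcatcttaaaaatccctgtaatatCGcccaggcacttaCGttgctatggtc
Spry2 chr14:105896820-105897069 (- strand): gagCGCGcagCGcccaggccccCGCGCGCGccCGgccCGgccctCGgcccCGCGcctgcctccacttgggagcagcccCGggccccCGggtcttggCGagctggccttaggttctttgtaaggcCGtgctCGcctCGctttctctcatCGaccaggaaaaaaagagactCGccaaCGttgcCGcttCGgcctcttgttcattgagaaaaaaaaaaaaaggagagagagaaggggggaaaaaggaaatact
Dusp6 chr10:99262981-99263230 (+ strand): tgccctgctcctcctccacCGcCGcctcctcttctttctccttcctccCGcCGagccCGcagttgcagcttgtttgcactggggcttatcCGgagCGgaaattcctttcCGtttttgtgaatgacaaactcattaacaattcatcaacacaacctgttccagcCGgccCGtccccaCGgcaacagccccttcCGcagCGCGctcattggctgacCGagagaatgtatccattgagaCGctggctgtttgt
The Fgf4 window held 21 CG dinucleotides, the Fgf9 window 11, the Spry2 window 23 and the Dusp6 window 16, against a median of 6 over 32851 windows of the same length. Of these windows, 83.65%, 64.43%, 86.69% and 74.56% held fewer than the Fgf4, Fgf9, Spry2 and Dusp6 windows, so none of the 4 counts is extreme. The ETS-type sequence CCGGAA, searched on both strands, was in none of the 4 windows and in 12% of all windows. No methylation value was analysed here, so the windows carry no measurement of their own.

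On day 3, 3 of the 10 members differed between Tet3m/m and Tet3+/+, which is read against 10.2% of all 17915 genes tested (5.06% higher and 5.19% lower). A gene was called where the limma adjusted p was under 0.05 and the fold change above 1.5. Fgf8 and Dusp6 rose and Fgf15 fell. In Tet3-/-, 2 members were called against 0.642% of all genes (0.458% higher and 0.184% lower): Fgf15 fell and Dusp6 rose. The all-gene count in Tet3-/- was unstable: 115 genes were called here, 86 by edgeR, 916 by DESeq2 and 664 with only the compared groups. It fell to between 0 and 2 without either Tet3-/- sample, any Tet3+/+ sample or Tet3m/m replicate 2, where 2305 to 3508 genes had an unadjusted p under 0.05, and it was 706 and 568 without Tet3m/m replicate 1 or 3. The share of 0.642% is therefore no firm background for the 2 members. Both sets of calls share the Tet3+/+ samples. Fold changes are on the log2(normalized count + 1) scale, which understates the change of low genes, and 95% intervals are not adjusted for the number of genes. The median log2 fold change of the members was 0.22 in Tet3m/m and -0.50 in Tet3-/-, and that of all genes 0.00081 and -0.014.

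Fgf15, the ligand that serves as a gut hormone in the adult and is used in the embryonic nervous system, was at 327, 603 and 651 in the Tet3+/+ samples, 75.8, 110.4 and 162 in Tet3m/m and 121 and 63.8 in Tet3-/-. No mutant sample reached the lowest wild-type sample. The fall was 4.53-fold in Tet3m/m (log2 fold change -2.18, SE 0.36, limma adjusted p = 0.00321) and 5.69-fold in Tet3-/- (log2 fold change -2.51, SE 0.40, limma adjusted p = 0.0464). The call in Tet3m/m held in all 17 alternative analyses run. The call in Tet3-/- rested on single libraries, since the adjusted p rose to between 0.0704 and 0.166 without either Tet3-/- sample, any Tet3+/+ sample or Tet3m/m replicate 2. The mutants did not differ detectably from each other (log2 fold change -0.33, 95% interval -1.22 to 0.56, limma adjusted p = 0.638).

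Fgf8, a ligand of the neural and mesodermal organizing centres, was low in every library, at 11.6, 7.47 and 7.91 in Tet3+/+, 33.8, 38.8 and 59.1 in Tet3m/m and 0 and 2.28 in Tet3-/-. The 3 genotypes did not overlap, with Tet3m/m highest and Tet3-/- lowest. The group means were 8.98 in Tet3+/+, 43.9 in Tet3m/m and 1.14 in Tet3-/-. Fgf8 thus passed the filter of a mean of at least 10 only through Tet3m/m, the group in which it was called higher. The day 3 counts of called members that include Fgf8 carry this limit. The rise in Tet3m/m (log2 fold change 2.15, SE 0.61, limma adjusted p = 0.0414) lost its call without any one of the 6 libraries compared, with adjusted p of 0.0717 to 0.144, and with a pseudocount of 0.1 or the replicate number as a block (adjusted p = 0.203 and 0.0646). The Tet3-/- libraries held 2 reads together, so the fitted fold change depends on the pseudocount and the read ratio is given instead. It was 0.122 against the 28 reads of Tet3+/+, with a 95% counting interval of 0.0141 to 0.485, and the limma test did not call it (adjusted p = 0.0915). Against the 137 reads of Tet3m/m the ratio was 0.0252 (0.00302 to 0.0928), and the test between the mutants called Fgf8 lower in Tet3-/- (limma adjusted p = 0.00266), as did all 16 alternatives. Counting intervals cover counting error only.

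Fgf17, a close relative of Fgf8, had the same order of group means, at 59.8, 36.4 and 43.5 in Tet3+/+, 51.2, 98.6 and 159 in Tet3m/m and 21.2 and 9.11 in Tet3-/-. The Tet3m/m and Tet3+/+ samples overlapped, and neither mutant was called against wild type (log2 fold change 1.01, 95% interval -0.035 to 2.06, limma adjusted p = 0.189 in Tet3m/m and log2 fold change -1.64, 95% interval -2.81 to -0.47, limma adjusted p = 0.128 in Tet3-/-). Between the mutants it was 6.28-fold lower in Tet3-/- (log2 fold change -2.65, SE 0.53, limma adjusted p = 0.0102), a call that was lost without Tet3-/- replicate 2 (log2 fold change -2.08, adjusted p = 0.0648). Fgf8 and Fgf17 were the 2 members called between the mutants, against 9.73% of all genes, 5.41% higher and 4.33% lower in Tet3-/-.

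Fgf4, the main autocrine ligand of ESCs, was at 193, 231 and 112 in Tet3+/+, 117, 177 and 313 in Tet3m/m and 138 and 50.1 in Tet3-/-. The groups overlapped and no difference was called (log2 fold change 0.13, 95% interval -0.86 to 1.11, limma adjusted p = 0.889 in Tet3m/m and log2 fold change -1.03, 95% interval -2.13 to 0.077, limma adjusted p = 0.28 in Tet3-/-). Fgf9, a ligand that acts on mesenchymal receptor isoforms, was at 109, 192 and 136 in Tet3+/+, 94.2, 70 and 72.3 in Tet3m/m and 65.7 and 92.2 in Tet3-/-. Every mutant sample lay below every wild-type one, but the test called neither mutant (log2 fold change -0.85, SE 0.29, limma adjusted p = 0.0763 in Tet3m/m and log2 fold change -0.86, SE 0.32, limma adjusted p = 0.173 in Tet3-/-). DESeq2 on the recovered reads called it in Tet3m/m (adjusted p = 0.0259).

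Dusp6 was at 4523, 3720.0 and 4756 in Tet3+/+, 8658, 7883 and 7814 in Tet3m/m and 7110.3 and 6411 in Tet3-/-. Every mutant sample lay above every wild-type sample. The rise was 1.88-fold in Tet3m/m (log2 fold change 0.91, SE 0.11, limma adjusted p = 0.000449), called in all 17 alternatives, and 1.57-fold in Tet3-/- (log2 fold change 0.65, SE 0.12, limma adjusted p = 0.0489). The Tet3-/- call lay at the threshold, with adjusted p over the alternatives from 0.000321 to 0.166. It was lost without either Tet3-/- sample, any Tet3+/+ sample or Tet3m/m replicate 2, where the adjusted p was 0.0803 to 0.166.

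The other feedback genes and Etv4 showed no called change on day 3. Spry2 was at 926, 957 and 1023 in Tet3+/+, 711, 885 and 1051 in Tet3m/m and 1072 and 1065 in Tet3-/- (log2 fold change -0.15, 95% interval -0.47 to 0.16, limma adjusted p = 0.526 in Tet3m/m and log2 fold change 0.14, 95% interval -0.21 to 0.49, limma adjusted p = 0.656 in Tet3-/-). Spry4, which like Spry2 blocks RAS and ERK activation, was at 102, 181 and 212 in Tet3+/+, 164, 307 and 393 in Tet3m/m and 159 and 129.8 in Tet3-/- (log2 fold change 0.77, 95% interval 0.0032 to 1.55, limma adjusted p = 0.173 and log2 fold change -0.13, 95% interval -0.996 to 0.73, limma adjusted p = 0.881). Without Tet3m/m replicate 1, Spry4 was called higher in Tet3m/m than in Tet3+/+ (adjusted p = 0.0434) and lower in Tet3-/- than in Tet3m/m (adjusted p = 0.0318). Etv4 spread more within Tet3m/m than between the genotypes, at 199.7, 342 and 899, against 428, 297 and 255 in Tet3+/+ and 422 and 482 in Tet3-/- (log2 fold change 0.31, 95% interval -0.65 to 1.26, limma adjusted p = 0.691 in Tet3m/m and log2 fold change 0.50, 95% interval -0.57 to 1.57, limma adjusted p = 0.603 in Tet3-/-).

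The 3 Tet3m/m clones differed from each other across the list. Replicate 3 had the highest value of its genotype in every member except Fgf9 and Dusp6. It also had the highest summed level of 10 pluripotency markers, 32741, where the other Tet3m/m samples had 12256 and 18883. Tbx3 was the most abundant of these markers in replicate 3, and none of the 10 was called in Tet3m/m against Tet3+/+. The sum ranged from 12141 to 16074 in Tet3+/+ and from 9613 to 13053 in Tet3-/-. Neural markers, led by Nes in all 8 samples, summed to 15557 to 24109 in Tet3+/+, 12952 to 14909.9 in Tet3m/m and 23505 to 26801 in Tet3-/-. Gene by gene, 1 of the 12 rose and 8 fell in Tet3m/m (median log2 fold change -1.18), and 2 rose and 2 fell in Tet3-/- (median -0.99), so that the median in Tet3-/- has the opposite sign to the change of the sum. The part of these markers in the FGF values was not tested.

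**Figure D1:**
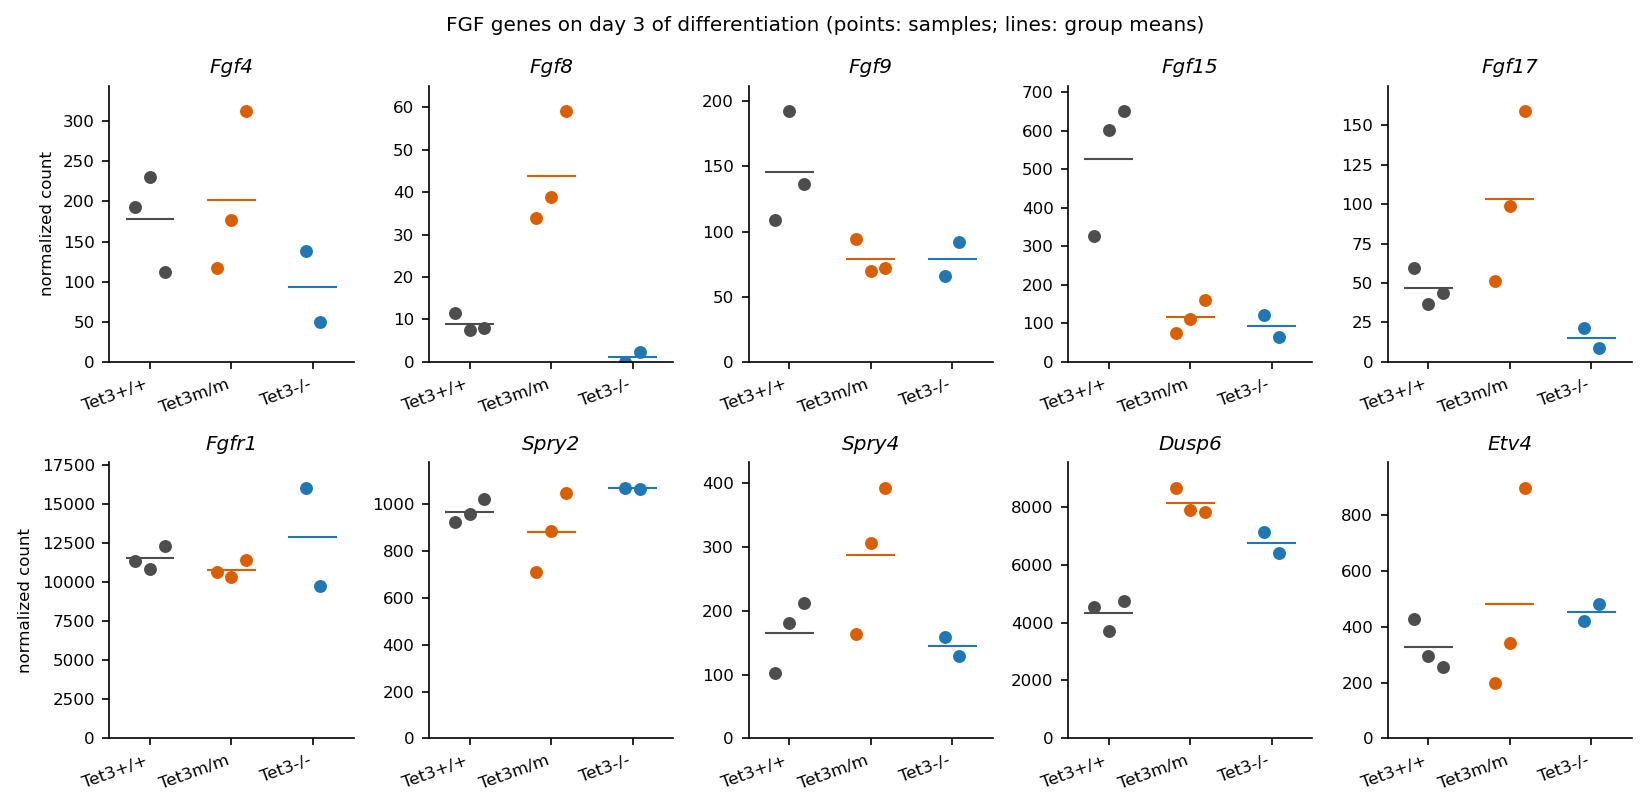
Normalized counts (y axis, linear from 0) of the 10 FGF genes in the 8 day 3 samples, by genotype on the x axis. Points are samples and lines are group means. Fgf15 is lower and Dusp6 higher in every mutant sample than in every Tet3+/+ sample, and Fgf8 is at 0 and 2.28 in the Tet3-/- samples.

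In the Dnmt1 experiment, most members differed between genotypes in the empty-vector cells. Between Tet3m/m and Tet3+/+, 7 members were called, 5 higher and 2 lower, against 21.2% of all 18055 genes tested (10.3% higher and 10.9% lower). Between Tet3-/- and Tet3+/+, 8 members were called and all 8 were lower, against 24.9% of all genes called, 13.9% lower. Between the mutants, 7 were called, 6 of them lower in Tet3-/-, against 39.6% of all genes (18.9% higher and 20.6% lower). The members' median log2 fold change was 0.71 in Tet3m/m and -1.01 in Tet3-/-, with all-gene medians of 0.0068 and 0.0034. These comparisons share the wild-type samples, so the counts are not independent of each other.

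In 6 members (Fgf4, Fgf8, Fgf17, Spry2, Spry4 and Etv4) both Tet3m/m samples lay above both Tet3+/+ samples and these above both Tet3-/- samples, an order without overlap that 17.2% of all genes tested had. Fgf9 alone had the opposite order, as did 18.1% of all genes.

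Fgf4 was at 761 and 725 in Tet3+/+, 1399 and 1594 in Tet3m/m and 43.8 and 59.2 in Tet3-/-. It was 2.01-fold higher in Tet3m/m (log2 fold change 1.01, SE 0.13, limma adjusted p = 9.95e-07) and 14.3-fold lower in Tet3-/- (log2 fold change -3.84, SE 0.13, limma adjusted p = 9.26e-16), the largest fall of any member. Both calls held in all 20 alternatives. Fgf17 was at 181 and 166 in Tet3+/+, 418 and 457 in Tet3m/m and 31.7 and 32.8 in Tet3-/-, so that it rose 2.51-fold in Tet3m/m (log2 fold change 1.33, SE 0.23, limma adjusted p = 4.44e-05) and fell 5.24-fold in Tet3-/- (log2 fold change -2.39, SE 0.23, limma adjusted p = 1.44e-08).

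Fgf8 was at 33.6 and 46.4 in Tet3+/+, 83.2 and 92.5 in Tet3m/m and 10.6 and 9.52 in Tet3-/-. It fell in Tet3-/- in all 20 alternatives (log2 fold change -1.88, SE 0.34, limma adjusted p = 9.45e-05). Its rise in Tet3m/m (log2 fold change 1.13, SE 0.34, limma adjusted p = 0.00981) was lost without the Tet3+/+ sample at 33.6 (adjusted p = 0.0982) or without Tet3m/m replicate 2 (adjusted p = 0.0626). Fgf9 was at 48.4 and 67.3 in Tet3+/+, 10.1 and 26 in Tet3m/m and 105 and 121 in Tet3-/-. It fell in Tet3m/m (log2 fold change -1.75, SE 0.43, limma adjusted p = 0.00193), a call lost without Tet3m/m replicate 1 (log2 fold change -1.10, adjusted p = 0.062). In Tet3-/- its value (log2 fold change 0.97, SE 0.43, limma adjusted p = 0.0633) did not pass, although it was called without Tet3m/m empty-vector replicate 1 or 2 or Dnmt1 replicate 1 (adjusted p = 0.0344, 0.0384 and 0.0494), and edgeR and DESeq2 on the recovered reads called it (adjusted p = 0.0243 and 0.0312). Fgf15, at 157 and 131 in Tet3+/+, 198 and 186 in Tet3m/m and 161 and 169 in Tet3-/-, was not called in either mutant (log2 fold change 0.42, 95% interval -0.29 to 1.13, limma adjusted p = 0.341 and log2 fold change 0.20, 95% interval -0.51 to 0.91, limma adjusted p = 0.649).

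Among the feedback genes, Spry4 had the widest range, at 675 and 576 in Tet3+/+, 1979 and 1868 in Tet3m/m and 65 and 86.8 in Tet3-/-. It was 3.08-fold higher in Tet3m/m (log2 fold change 1.62, SE 0.12, limma adjusted p = 5.07e-10) and 8.21-fold lower in Tet3-/- (log2 fold change -3.04, SE 0.12, limma adjusted p = 2.67e-14). Spry2 was at 1809.8 and 1693 in Tet3+/+, 2264 and 2336 in Tet3m/m and 771 and 833 in Tet3-/-. It fell 2.18-fold in Tet3-/- (log2 fold change -1.13, SE 0.071, limma adjusted p = 2.92e-11). In Tet3m/m its difference passed the adjusted p but not the fold of 1.5 (log2 fold change 0.39, SE 0.071, limma adjusted p = 9.1e-05).

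Dusp6 did not follow the Sprouty genes in Tet3m/m. It was at 7099.7 and 7129 in Tet3+/+, 6024 and 6839 in Tet3m/m and 4540.5 and 4389.6 in Tet3-/-. It fell 1.59-fold in Tet3-/- (log2 fold change -0.67, SE 0.077, limma adjusted p = 2.33e-07) and was not called in Tet3m/m (log2 fold change -0.15, 95% interval -0.31 to 0.011, limma adjusted p = 0.124). Etv4 was at 434 and 459 in Tet3+/+, 2124 and 2321 in Tet3m/m and 223 and 260.3 in Tet3-/-. Its 4.97-fold rise in Tet3m/m was the largest of any member (log2 fold change 2.31, SE 0.10, limma adjusted p = 3.51e-14), and it fell 1.85-fold in Tet3-/- (log2 fold change -0.89, SE 0.10, limma adjusted p = 1.81e-07).

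Set directly against each other, the mutants differed in 7 members. Tet3-/- cells had less Fgf4 (log2 fold change -4.85, 95% interval -5.11 to -4.58) and less Spry4 (-4.66, -4.92 to -4.40) than Tet3m/m cells. Fgf17 (-3.72), Etv4 (-3.20), Fgf8 (-3.01) and Spry2 (-1.52) were also called lower, and Fgf9 higher (2.71). Dusp6 passed the adjusted p under the fold threshold (log2 fold change -0.52, SE 0.077, limma adjusted p = 3.82e-06) and passed both without Tet3m/m replicate 1, and Fgfr1 passed it at 1.1-fold (log2 fold change 0.13, SE 0.043, limma adjusted p = 0.0103). Fgf15 did not differ detectably (log2 fold change -0.22, 95% interval -0.93 to 0.49, limma adjusted p = 0.591).

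**Figure D2:**
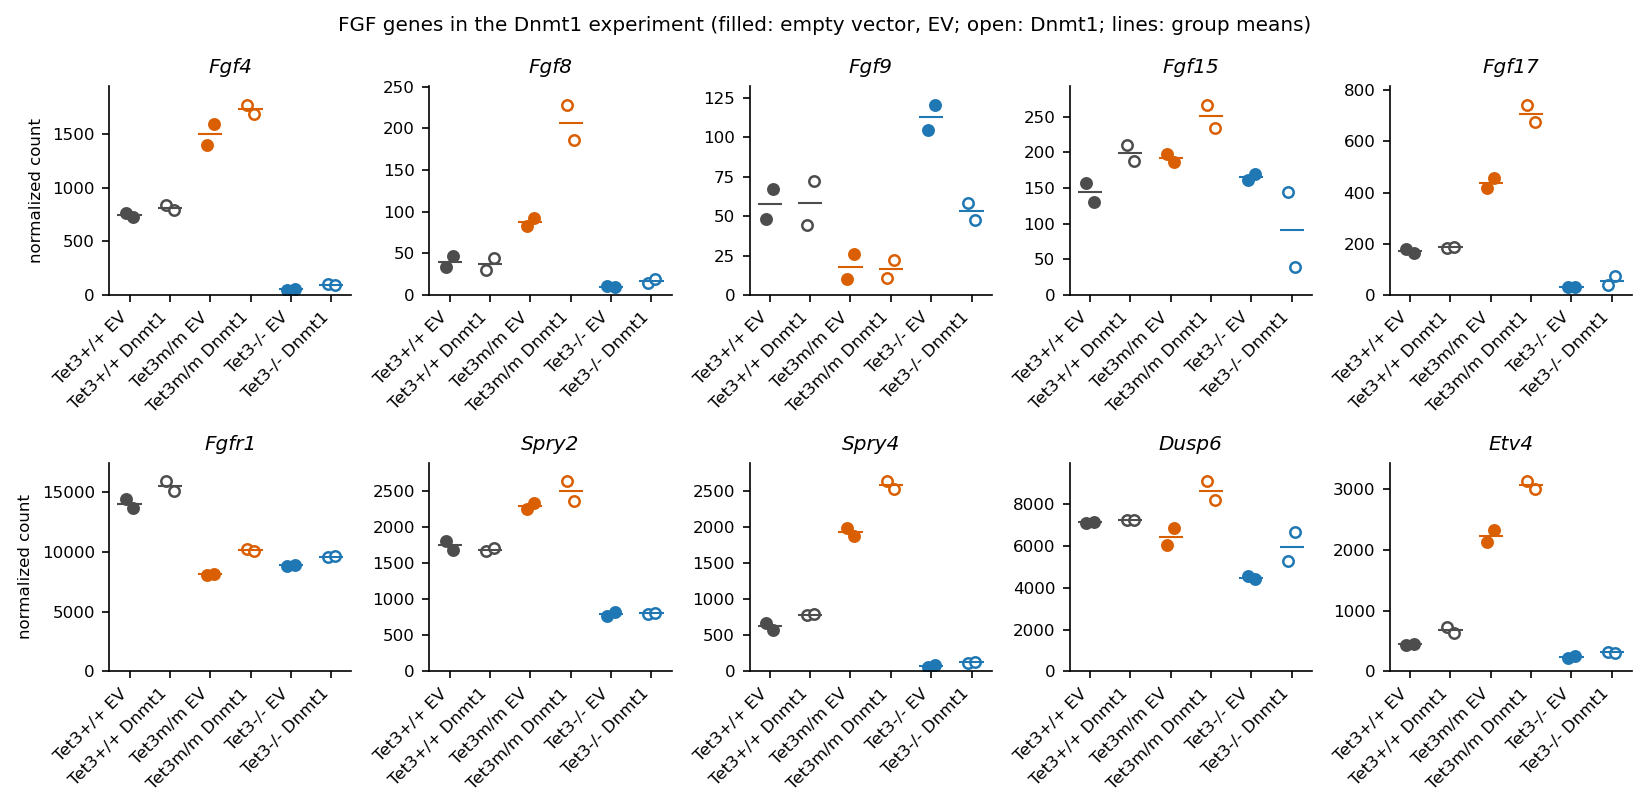
Normalized counts (y axis, linear from 0) of the 10 FGF genes in the 12 samples of the Dnmt1 experiment, by genotype and vector on the x axis (EV, empty vector). Points are samples and lines are group means. Fgf4, Fgf17, Spry4 and Etv4 are highest in Tet3m/m and lowest in Tet3-/- with either vector.

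Marker genes of several cell states moved with these values. With the empty vector, the 10 pluripotency markers summed to 35932 to 36156 in Tet3+/+, 98206 to 100779 in Tet3m/m and 10231 to 10954 in Tet3-/-, the same order as Fgf4. Against Tet3+/+, 9 of the 10 rose and 1 fell in Tet3m/m, and 9 fell in Tet3-/-. The 14 markers of extraembryonic endoderm, led by Col4a1 or Sparc, which other cell types also express, summed to 194603 to 202979, 475459 to 530098 and 78399 to 82475 in the same groups. Neural markers, led by Nes in 10 of the 12 libraries, had the reverse order, at 9928 to 10392, 4188 to 4259 and 15931 to 16419. Of these 12 markers, 2 rose and 7 fell in Tet3m/m (median log2 fold change -1.29). In Tet3-/-, 4 rose and 2 fell (median 0.11), so the sum does not stand for the list. The reverse order also held for 9 fibroblast and feeder markers, at 20113 to 22053, 3464 to 3792 and 39466 to 39642. Of these, 1 rose and 7 fell in Tet3m/m, and 4 rose and 1 fell in Tet3-/-. Trophoblast markers, led by Krt8, were at 46032 to 46222, 19004 to 21179.9 and 95517 to 99096, those of the primitive streak and mesoderm at 1952 to 2003, 3237 to 3340.5 and 708 to 825, and those of primed epiblast at 9215 to 9521, 8692 to 8699.6 and 8763 to 9001. Of 7 trophoblast markers tested, 5 fell in Tet3m/m, and 2 rose and 1 fell in Tet3-/-. No member is on any of these lists, and the part of the cell states in the FGF values was not tested.

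The fold changes of the same genes therefore differed between experiments. Dusp6 was called higher in Tet3-/- on day 3 and lower with the empty vector, and the samples did not overlap in either case. Fgf4, Spry2, Spry4 and Etv4 were called lower in Tet3-/- in the Dnmt1 experiment and not called on day 3. Fgf15 was called lower in both mutants on day 3 and in neither with the empty vector. Fgf8 was called higher in Tet3m/m in both, and each of these calls was lost on the omission of single libraries. The day 3 calls of Dusp6 and Fgf15 in Tet3-/- were lost in the same way. Transfection and drug selection differ between the experiments and cannot be told apart, the clones of the transfected samples are not given in the sources used here, and the differences between experiments were not tested.

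**Figure D3:**
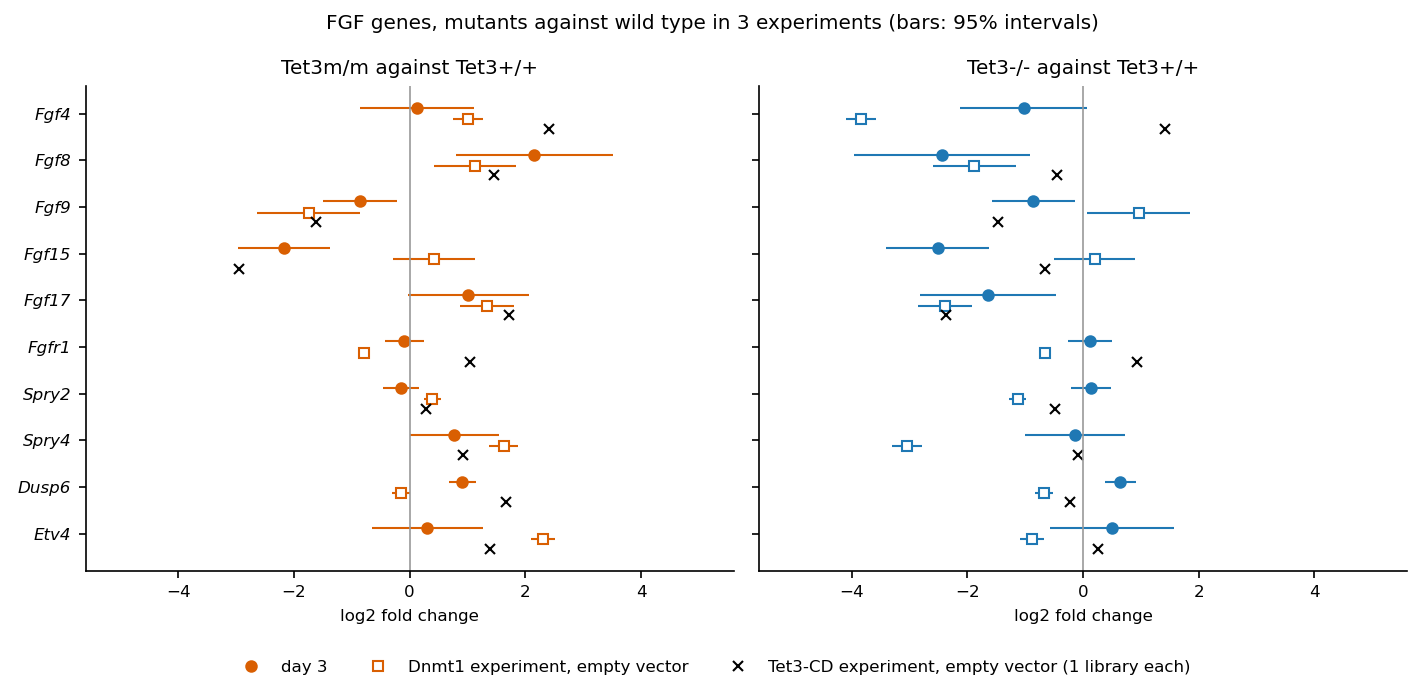
Log2 fold change (x axis) of each FGF gene (y axis) in Tet3m/m and Tet3-/- against Tet3+/+. Filled circles are day 3, open squares the empty-vector samples of the Dnmt1 experiment, both with 95% intervals from the fit, and crosses the single empty-vector libraries of the Tet3-CD experiment, which have no interval. In Tet3-/-, Fgf4 is at -3.84 in the Dnmt1 experiment and at 1.41 in the Tet3-CD experiment.

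Fgfr1, the receptor through which FGF4 acts in ESCs, has to be read beside its chromosome. With the empty vector it was at 14401 and 13640.2 in Tet3+/+, 8053 and 8163 in Tet3m/m and 8836 and 8933 in Tet3-/-. It fell in both mutants (log2 fold change -0.79, SE 0.043, limma adjusted p = 1.81e-12 in Tet3m/m and log2 fold change -0.66, SE 0.043, limma adjusted p = 5.04e-11 in Tet3-/-). The 881 tested genes matched to chromosome 8, where Fgfr1 lies, had a median log2 ratio to the wild-type mean of -0.44 and -0.44 in the Tet3m/m and -0.36 and -0.37 in the Tet3-/- samples. Fgfr1 differed from its chromosome's median by -0.34 in Tet3m/m and -0.28 in Tet3-/-, which is under the 1.5-fold threshold in both.

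On day 3, Fgfr1 was at 11394, 10886 and 12346 in Tet3+/+, 10636, 10332 and 11454 in Tet3m/m and 16070.0 and 9764 in Tet3-/-, and no difference was called (log2 fold change -0.094, 95% interval -0.43 to 0.24, limma adjusted p = 0.733 and log2 fold change 0.12, 95% interval -0.26 to 0.50, limma adjusted p = 0.734). Chromosome 8 was at -0.38, -0.34 and -0.30 in the Tet3m/m samples, at -0.079, -0.046 and 0.13 in Tet3+/+, and split the Tet3-/- samples, at 0.17 and -0.32. The Tet3-/- replicate with the higher chromosome 8 median also had the higher Fgfr1. The part of the chromosome in the Fgfr1 values was not tested. For the other members, the median of their chromosome stayed between -0.13 and 0.0689 in every tested comparison.

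**Figure D4:**
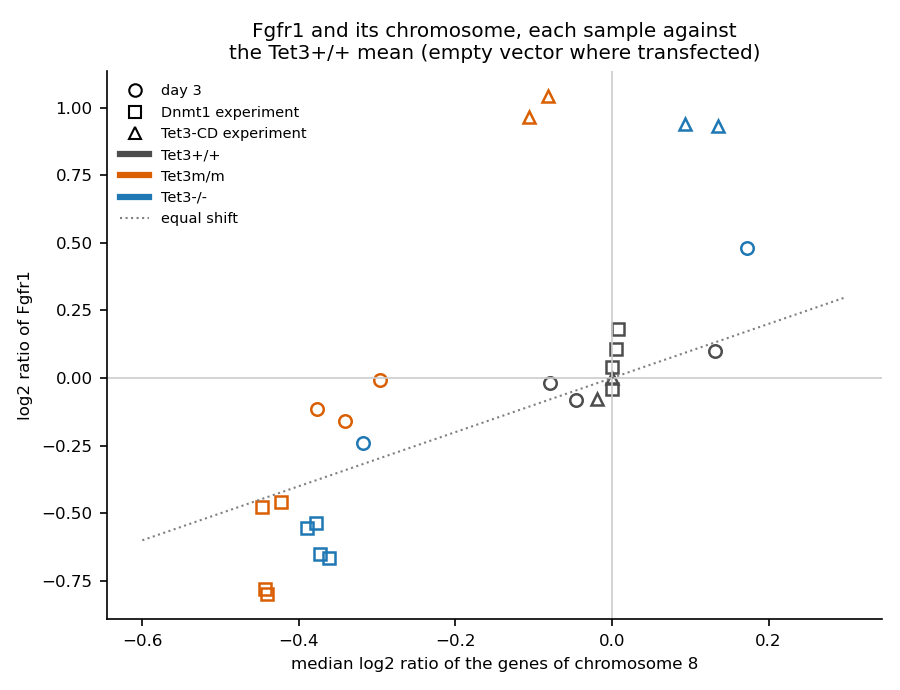
Log2 ratio of Fgfr1 (y axis) against the median log2 ratio of the tested genes of chromosome 8 (x axis), each sample relative to the Tet3+/+ mean of its experiment (empty vector where transfected). Colours are genotypes, symbols are experiments, and the dotted line marks equal shifts. The mutants of the Dnmt1 experiment lie at a chromosome median near -0.44 or -0.36 with Fgfr1 lower still, and those of the Tet3-CD experiment have Fgfr1 near 1 with the chromosome near 0.

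Dnmt1 overexpression changed 1 member in wild-type cells. Etv4 was the only member called in Tet3+/+, against 1.17% of all genes (0.421% higher and 0.753% lower), and rose from 434 and 459 to 737 and 632 (log2 fold change 0.61, SE 0.10, limma adjusted p = 0.000893). It fell under the 1.5-fold threshold without Dnmt1 replicate 1 (log2 fold change 0.50) or without the empty-vector sample at 434 (0.57). In Tet3m/m, 1 member was called against 2.46% of all genes (1.78% higher and 0.681% lower): Fgf8 rose from 83.2 and 92.5 to 228 and 185 (log2 fold change 1.22, SE 0.34, limma adjusted p = 0.0255), a call lost without any one of these 4 samples, with adjusted p from 0.0898 to 0.211. Spry4, Dusp6, Etv4 and Fgfr1 passed the adjusted p in Tet3m/m with rises under 1.5-fold, from 1.25-fold for Fgfr1 to 1.38-fold for Etv4. Fgf17, at 742 and 674 with Dnmt1 against 418 and 457 without, missed it (log2 fold change 0.69, SE 0.23, limma adjusted p = 0.0547), and was called by edgeR and DESeq2 on the recovered reads (adjusted p = 0.00289 and 0.000837).

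In Tet3-/-, 4 members were called with Dnmt1, 3 higher and 1 lower, against 3.53% of all genes, 2.51% higher and 1.02% lower. Fgf4 rose from 43.8 and 59.2 to 98.9 and 92.8 (log2 fold change 0.90, SE 0.13, limma adjusted p = 6.45e-05) and Spry4 from 65 and 86.8 to 116 and 133 (log2 fold change 0.72, SE 0.12, limma adjusted p = 0.00048). Both stayed far below the empty-vector wild-type values given above. With only the 2 groups in the fit, neither was called (adjusted p = 0.0872 and 0.122), and without empty-vector replicate 1 the rise of Spry4 was 0.51 on the log2 scale, under the fold threshold.

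Fgf17 and Fgf15 rested on 1 of the 2 Dnmt1 samples of Tet3-/-. Fgf17 was at 31.7 and 32.8 with the empty vector and 37.8 and 73.8 with Dnmt1 (log2 fold change 0.70, SE 0.23, limma adjusted p = 0.0445). Without Dnmt1 replicate 2 its log2 fold change was 0.22 (adjusted p = 0.628), and the call was also lost with the replicate number as a block (adjusted p = 0.0564) and in 13 other alternatives of 21, among them the omission of any library of the experiment other than Tet3-/- Dnmt1 replicate 1. Fgf15 was at 161 and 169 with the empty vector and 144 and 39.3 with Dnmt1 (log2 fold change -1.12, SE 0.34, limma adjusted p = 0.0318), and without the same sample at -0.20 (adjusted p = 0.688). edgeR and DESeq2 on the recovered reads did not call it (adjusted p = 0.086 and 0.275). Without either empty-vector sample, its adjusted p was 0.11 and 0.155. Fgf9 was at 105 and 121 with the empty vector and 58.7 and 47.6 with Dnmt1, without overlap. It was not called (log2 fold change -1.07, SE 0.43, limma adjusted p = 0.105), but was called lower by edgeR, by DESeq2 and with only the compared groups (adjusted p = 0.0457, 0.0423 and 0.0392). Dusp6 and Etv4 passed the adjusted p with rises of 1.32-fold and 1.29-fold.

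Whether the effect of Dnmt1 differed between genotypes was tested as an interaction, called at an adjusted p under 0.05 with no fold threshold. No member was called for Tet3m/m against Tet3+/+, where 3 members had an unadjusted p under 0.05, edgeR called 1 and DESeq2 0, and 1.31% of all genes were called (1.08% with a higher and 0.227% with a lower effect). For Tet3-/- against Tet3+/+, 3 members were called, as were 9.71% of all genes, 5.24% with a higher and 4.47% with a lower effect. The Dnmt1 effect on Fgf4 was larger in Tet3-/- by 0.76 on the log2 scale (SE 0.18, limma adjusted p = 0.00881), with adjusted p from 0.00114 to 0.0477 over 20 alternatives. That on Dusp6 was larger by 0.38 (SE 0.11, limma adjusted p = 0.0274) and that on Fgf15 lower (difference -1.59, SE 0.48, limma adjusted p = 0.0397), and both calls were lost without Tet3-/- Dnmt1 replicate 2 (adjusted p = 0.139 and 0.16). Over 20 alternatives each, the call was lost in 8 for Dusp6, among them the omission of any Tet3+/+ sample or either empty-vector Tet3-/- sample, and in 15 for Fgf15, among them the omission of any library other than Tet3-/- Dnmt1 replicate 1.

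In the Tet3-CD experiment, a member was counted where the ratio of normalized count + 1 lay past 1.5-fold. This held for 9 of the 10 members between the empty-vector Tet3m/m and Tet3+/+ libraries, 7 higher and 2 lower, where 36.3% of 17481 genes did (20.2% higher and 16.1% lower). Each group is 1 library, so these values compare libraries and have no replicate check. Fgf4 was at 83.3 in Tet3+/+ and 444 in Tet3m/m (ratio 5.33, 95% counting interval 4.19 to 6.86). Dusp6 was at 2458 and 7753 (ratio 3.15, 95% counting interval 3.01 to 3.3), and Etv4 at 301 and 793 (ratio 2.63, 95% counting interval 2.3 to 3.02). Fgf17, Fgf8, Spry4 and Fgfr1 were higher by ratios of 3.34, 2.94, 1.89 and 2.06. Fgf15, at 303 and 38.2, was lower (ratio 0.126, 95% counting interval 0.0884 to 0.175), as was Fgf9 (ratio 0.322, 95% counting interval 0.223 to 0.459). Spry2 was the member within 1.5-fold, at 987 and 1200.0.

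The empty-vector Tet3-/- library had 5 members past 1.5-fold against Tet3+/+, where 27.1% of all genes were (15.4% higher and 11.7% lower). Fgf4, at 224, and Fgfr1, at 9221 against 4806, were higher (ratio 2.68, 95% counting interval 2.06 to 3.52 for Fgf4). Fgf17, at 10 against 55.6, Fgf9 and Fgf15 were lower, with ratios of 0.18, 0.355 and 0.631. Spry4, Etv4, Dusp6 and Spry2 lay within 1.5-fold, with ratios of 0.938, 1.19, 0.855 and 0.718, as did Fgf8 with 6 reads against 8. All of these were called lower in Tet3-/- in the Dnmt1 experiment. Fgfr1 was thus higher in both mutant libraries here and lower in both mutants of the Dnmt1 experiment. By the study's description the cells of the Dnmt1 experiment were collected earlier in differentiation, and these differences between experiments were not tested. The wild-type libraries of this experiment stood apart in the summed extraembryonic endoderm markers. This sum was 779937 with the empty vector, against 159201 in Tet3m/m and 207981 in Tet3-/-. It was led in all 6 libraries by Col4a1, which other cell types also express. Markers were not counted gene by gene in this experiment, so a sum need not stand for its list. The part of this sum in the ratios was not tested. Pluripotency markers, led by Tbx3 in all 6 libraries, summed to 13294 in Tet3+/+, 23322 in Tet3m/m and 16903 in Tet3-/-, the order of Fgf4. This sum need not stand for the list, and its part was not tested either.

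Tet3-CD left the members close to their empty-vector levels in Tet3m/m, where 0 of the 10 lay past 1.5-fold against 10.1% of all genes (4.58% higher and 5.53% lower). There Tet3 went from 1849.9 to 5232, Dusp6 from 7753 to 7165 (ratio 0.924, 95% counting interval 0.896 to 0.953) and Fgf4 from 444 to 392 (ratio 0.882, 95% counting interval 0.772 to 1.01). In Tet3-/-, where Tet3 went from 2069.8 to 2759, 5 members lay past 1.5-fold against 21.5% of all genes (9.89% higher and 11.6% lower). Fgf4 was lower with Tet3-CD, at 98.3 against 224 (ratio 0.44, 95% counting interval 0.345 to 0.557), with pluripotency markers at 12099.8 against 16903. Between the same libraries, summed neural markers went from 7933 to 14455, extraembryonic endoderm markers from 207981 to 130506 and streak and mesoderm markers from 2406 to 1641. Summed trophoblast markers went from 83414 to 115801 and fibroblast markers from 24448 to 30409. In both libraries these sums were led by Nes, Col4a1, Hand1, Krt8 and Col1a1, in that order, and need not stand for the lists. Their part in the member values was not tested. Fgf15 was lower, at 44.4 against 191 (ratio 0.232, 95% counting interval 0.165 to 0.321), and Dusp6 higher, at 3582 against 2102 (ratio 1.7, 95% counting interval 1.62 to 1.8). Fgf8 had 6 reads without and 0 reads with Tet3-CD, which is 2.12-fold lower if a floor of 3 reads is set. This is no lower bound of the change, since the counting interval of the ratio reached 0.801. Fgf17 had 10 and 6 reads, which counting error covers (ratio 0.566, 95% counting interval 0.169 to 1.72).

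In Tet3+/+, 5 members lay past 1.5-fold with Tet3-CD, against 13.4% of all genes (6.11% higher and 7.3% lower), while Tet3 went from 4755 to 5441. Fgf17 was lower, at 5.93 against 55.6 (ratio 0.107, 95% counting interval 0.0374 to 0.248), from 52 and 6 reads. Fgf4, Fgf9 and Fgf15 were lower by ratios of 0.64, 0.637 and 0.635. Fgf8 had 8 reads and 15, which counting error covers (ratio 1.73, 95% counting interval 0.69 to 4.72). Dusp6, Etv4, Spry2 and Fgfr1 lay within 1.5-fold.

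**Figure D5:**
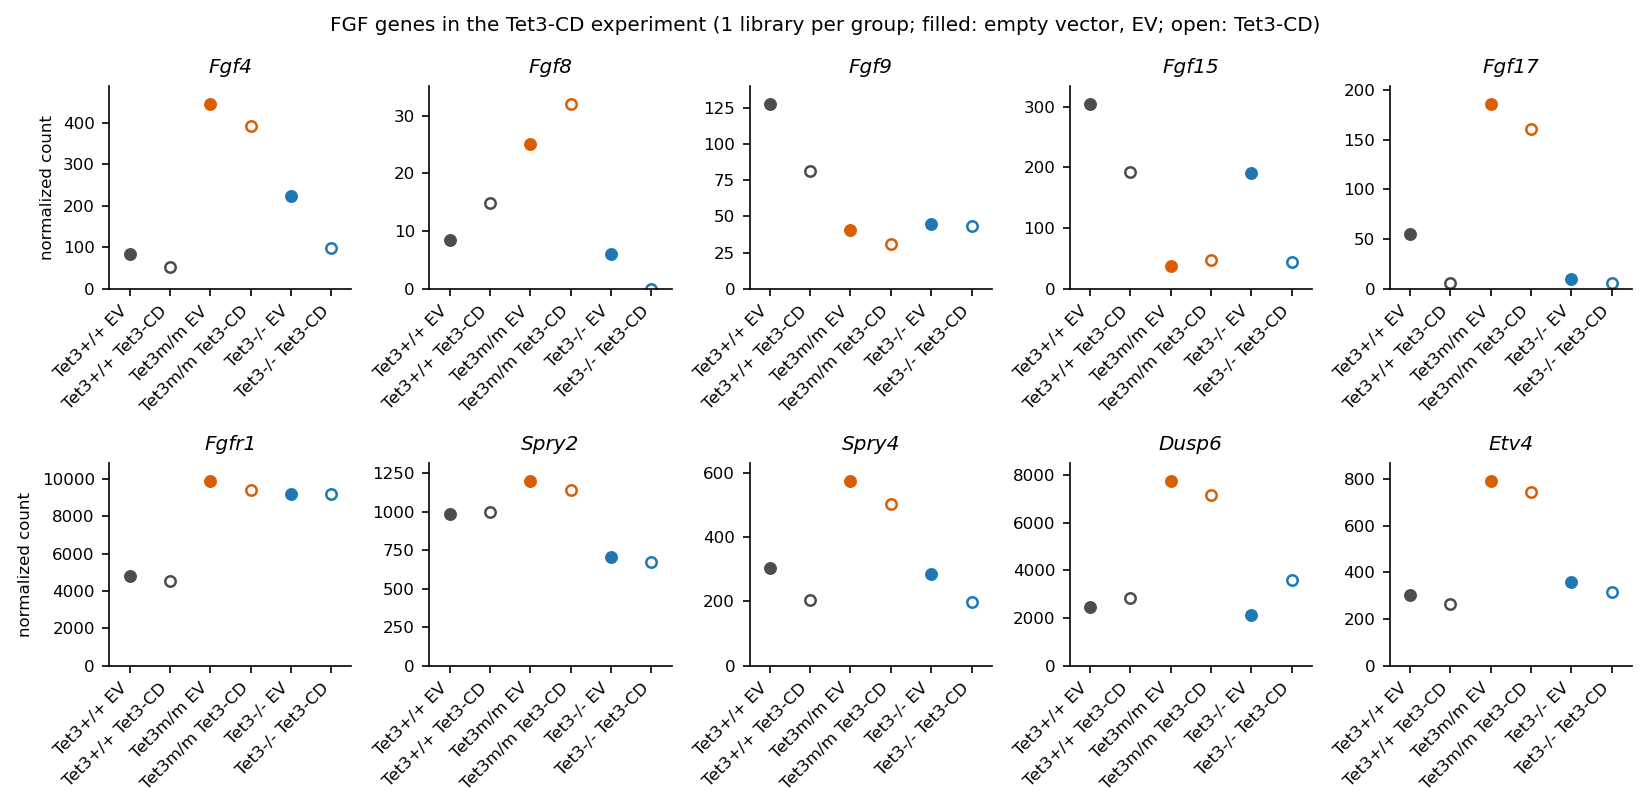
Normalized counts (y axis, linear from 0) of the 10 FGF genes in the 6 libraries of the Tet3-CD experiment, by genotype and vector on the x axis (EV, empty vector). Each point is 1 library, so there is no error to draw. Dusp6, Etv4, Fgf17 and Fgf4 are highest in the Tet3m/m libraries, and both vectors give close values there.

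The rest of the FGF pathway was listed as 79 further genes, of which 73 were tested on day 3 and 72 in the Dnmt1 experiment. On day 3, 10 of 73 were called in Tet3m/m, 6 higher and 4 lower, a share of 13.7% beside 10.2% of all genes. In Tet3-/-, 3 were called (4.11%), 2 higher and 1 lower, beside 0.642% of all genes, which is no firm background as given above. In empty-vector cells, 21 of 72 were called in Tet3m/m (10 higher, 11 lower) and 28 in Tet3-/- (14 higher, 14 lower), shares of 29.2% and 38.9% beside the all-gene shares above. Of 16 signal transducers from Frs2 to Mapk3, at most 1 was called in either mutant against Tet3+/+ with the empty vector.

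The counts by group below stand beside the all-gene shares with the empty vector, 21.2% called in Tet3m/m (10.3% higher and 10.9% lower) and 24.9% in Tet3-/- (13.9% lower). Among the other secreted ligands with the empty vector, 4 of 8 were called in Tet3m/m, all higher, and in Tet3-/- 1 rose and 4 fell. Fgf1, a ligand for all FGF receptors, was at 32 ± 17.6 against 317 ± 6.39 in Tet3-/- and Tet3+/+ (SD, n = 2 each; log2 fold change -3.38, SE 0.24, limma adjusted p = 2.32e-10), and on day 3 at 203 ± 3.14 against 49.8 ± 3.82 in Tet3m/m and Tet3+/+ (n = 3 each; log2 fold change 2.01, SE 0.45, limma adjusted p = 0.0149). Klb, the coreceptor of endocrine FGFs such as FGF15, was at 68.8 ± 10.6 against 515 ± 14.5 in Tet3-/- and Tet3+/+ with the empty vector (log2 fold change -2.89, SE 0.19, limma adjusted p = 4.1e-11) and at 237 ± 133 against 85.3 ± 5.63 in Tet3m/m and Tet3+/+ on day 3 (log2 fold change 1.33, SE 0.34, limma adjusted p = 0.0275). Fgf7 also rose in Tet3m/m on day 3, at 28.3 ± 12.9 against 6.69 ± 2.33 in Tet3+/+ (log2 fold change 1.87, SE 0.54, limma adjusted p = 0.044). Its Tet3+/+ mean lay under the filter of 10. Fgfr3 fell in Tet3-/- on day 3 (log2 fold change -1.30, SE 0.20, limma adjusted p = 0.0457), in the contrast whose all-gene count was unstable, as given above.

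The ERK targets other than Etv4 had more calls up than down in Tet3-/- with the empty vector, where all 8 called members were lower: 5 of 9 rose and 1 fell, with a median log2 fold change of 0.75. The immediate early gene Egr1 was at 17380.3 ± 5406 against 7976 ± 495 in Tet3-/- and Tet3+/+ on day 3 (SD, n = 2 and 3, log2 fold change 1.09, SE 0.21, limma adjusted p = 0.04999). The glypican Gpc4 was at 18416 ± 408 against 8557 ± 1853 (log2 fold change 1.13, SE 0.22, limma adjusted p = 0.04999). Both calls lay at the threshold, in the day 3 contrast whose all-gene count was unstable to the omission of single libraries, as given above. Of 15 other feedback genes, 3 rose and 1 fell in Tet3m/m with the empty vector, and 2 rose and 5 fell in Tet3-/-. Between the mutants on day 3, the ERK phosphatase Dusp4 was higher in Tet3-/- (log2 fold change 1.52, SE 0.17, limma adjusted p = 0.000557), as was the ERK target Ier3 (log2 fold change 1.32, SE 0.28, limma adjusted p = 0.0133), while Klb was lower (log2 fold change -2.04, SE 0.38, limma adjusted p = 0.00773). Dusp6 was not called between them (log2 fold change -0.26, 95% interval -0.53 to -0.002, limma adjusted p = 0.175).

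Heparan sulfate genes, which set how ligands are held at the cell surface, had 5 of 14 called in Tet3m/m with the empty vector, all lower, and 5 of 14 called in Tet3-/-, all higher, where 21.2% and 24.9% of all genes were called. The sulfotransferase Hs6st2 was at 329 ± 12.3 against 1798 ± 15.5 in Tet3m/m and Tet3+/+ (SD, n = 2 each; log2 fold change -2.45, SE 0.078, limma adjusted p = 2.75e-16), and the sulfatase Sulf1 at 1048 ± 89.5 against 5217 ± 75.4 (log2 fold change -2.32, SE 0.056, limma adjusted p = 3.5e-18). Dnmt1 raised both in Tet3m/m (log2 fold change 1.08, SE 0.078, limma adjusted p = 8.01e-09 for Hs6st2 and log2 fold change 0.79, SE 0.056, limma adjusted p = 7.13e-09 for Sulf1), together with the ERK target Myc (log2 fold change 0.86, SE 0.083, limma adjusted p = 4.08e-07). In Tet3+/+, the 1 pathway gene called with Dnmt1 was Flrt2, a membrane protein that binds FGF receptors (log2 fold change 0.93, SE 0.12, limma adjusted p = 9.09e-05). In Tet3-/-, Fgf1 and Cnpy1, a chaperone for FGFR1, rose (log2 fold change 0.96, SE 0.24, limma adjusted p = 0.0105 and log2 fold change 0.74, SE 0.14, limma adjusted p = 0.00124) and Fgf3 fell (log2 fold change -0.69, SE 0.20, limma adjusted p = 0.0228). The intracellular FGFs Fgf12 and Fgf14, which do not signal through FGF receptors, averaged below 30 normalized counts in these groups, where Fgf12 was lower in Tet3m/m (log2 fold change -2.20, SE 0.50, limma adjusted p = 0.000949) and Fgf14 lower in Tet3-/- than in Tet3+/+ (log2 fold change -2.39, SE 0.77, limma adjusted p = 0.0125).

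Over the 26 samples, with each gene's log2 value taken relative to its own table's mean, the members were compared in pairs. These correlations describe samples that share genotypes, clones and tables, so no p is given. Fgf4 and Spry4 had a Pearson r of 0.93, Spry2 and Spry4 0.92, Spry4 and Etv4 0.87, and Fgf8 and Fgf17 0.82. Dusp6 was less like the Sprouty genes, at 0.45 with Spry2 and 0.51 with Spry4, and ran against Fgf15, at -0.61. Fgf9 ran against Etv4 at -0.82, and Fgfr1 had no member above 0.40.

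Among 16812 genes tested in all 3 tables, the 2 non-member genes most like Fgf4 were Nanog (0.98) and Pecam1 (0.98), where Nanog is a pluripotency factor. Spry4 was most like L1td1 (0.97) and Etv5 (0.97), of which Etv5 is another ETS factor induced by ERK. Spry2 was most like Pabpc4 (0.96) and Prps1 (0.92), Etv4 like Bicral (0.95) and Zfp57 (0.95), and Dusp6 like Eng (0.96) and Csn3 (0.92). Fgf8 was most like Spred2 (0.89) and Morf4l1 (0.89), where Spred2 is itself an inhibitor of the RAS and ERK cascade, and Fgf17 like Mafa (0.92) and Gm7896 (0.92). Fgf9 was most like Bmpr1b (0.91) and Zfp516 (0.90), and Fgfr1 like Aars (0.89) and Wwp2 (0.85). The number in parentheses is Pearson's r over the 26 samples.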

How the data were processed

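RNA was sequenced in 26 of the 35 samples of the series, and methylation and chromatin data were not analysed here. The authors trimmed reads with Trim Galore 0.6.7, aligned them with STAR 2.7.9a to mm39, counted them per gene with featureCounts and deposited counts divided by DESeq2 size factors, 1 table per experiment. These normalized counts are a signal that the authors made by scaling whole-gene counts, and the 3 tables were scaled separately. Per the labels mm10 is the only build, so no coordinates were taken for the counts, and chromosomes were matched by symbol for 92.6% of tested day 3 genes. Dividing each library's normalized signal by the worth of 1 read returned whole reads for 100% of values (tolerance 0.01), which gave the depth and the input of the count tests.

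Tests used limma 3.58.1 in R 4.3.3 on log2(value + 1) with a mean-variance trend, over genes with a mean of at least 10 and all groups of a table in 1 fit, with Benjamini-Hochberg adjustment over all genes. A call needed an adjusted p under 0.05 and a fold above 1.5, and interactions only the adjusted p. Tet3-CD libraries were compared as ratios with exact 95% counting intervals. All 3 tables have a lowest gene mean near or under the filter of 10, and lower genes may have been removed before deposit.

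Alternatives were edgeR 4.0.16 and DESeq2 1.42.0 on the recovered reads, TMM rescaling, pseudocounts of 0.1 and 5, a minimum mean of 50, no filter, only the compared groups, a fold of 2 or none, the replicate number as a block, omission of each library, and subtraction of the chromosome median. The steps were tested on simulated data. No replicate pair differed by less than sampling noise, with a mean chi-square per gene of 15.0 to 96.3 on day 3 and 4.16 to 12.1 in the Dnmt1 experiment. The FGF genes and the pathway and marker lists were chosen with earlier results of these data known. All 10 FGF genes are named, with Tet3 and Dnmt1 as label checks, up to 3 called pathway genes of largest fold per comparison and the 2 genes most correlated with each member, which for Fgf15 are not reported here. Etv5, Nes and other markers were named after their values were seen. Exon lengths came from GENCODE vM21 and promoters from RefSeq.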

Additional observations from a re-analysis of the deposited data

Results flagged for a closer look

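The interaction test called a different response to Dnmt1 in Tet3-/- and Tet3+/+ cells for 3 members, beside 9.71% of all genes. The difference of the log2 effects was 0.76 for Fgf4, 0.38 for Dusp6 and -1.59 for Fgf15. Without Tet3-/- Dnmt1 replicate 2 it shrank to 0.22 for Dusp6 and -0.66 for Fgf15. DESeq2 on the recovered reads called 1 member.

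Between experiments, the log2 fold changes of some members had opposite signs under the same contrast, with no overlap of samples in either. These differences were not tested. Only Dusp6 in Tet3-/- was called in both experiments, and Fgf9 was called in neither. The other contrasts listed were called in a single experiment, with limma adjusted p from 0.124 to 0.656 in the other. How many of all genes had such opposite signs was not counted. For Tet3m/m against Tet3+/+, the log2 fold change of Fgf15 was -2.18 on day 3 and 0.42 with the empty vector of the Dnmt1 experiment, and that of Dusp6 was 0.91 and -0.15. For Tet3-/- against Tet3+/+, Fgf9 was at -0.86 and 0.97, Fgf15 at -2.51 and 0.20, Spry2 at 0.14 and -1.13, and Dusp6 at 0.65 and -0.67. For Tet3-/- against Tet3m/m, Spry2 was at 0.29 and -1.52. The experiments differ in transfection and selection, which cannot be told apart.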

How the results depend on the processing

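On day 3, the count of members called in Tet3-/- against Tet3+/+ was 1 with a pseudocount of 0.1, a minimum mean of 50 or TMM rescaling, and against Tet3m/m 1 with a minimum mean of 50, where Fgf8 had no value. For Dnmt1 in Tet3m/m it was 2 with a pseudocount of 5, a minimum mean of 50, edgeR, DESeq2 or only the compared groups, and 5 with no fold threshold. For Dnmt1 in Tet3-/- it was 2 with a pseudocount of 0.1 and 1 with only the compared groups, where all 4 calls were lost and Fgf9 was called lower. The interaction count was 1 for Tet3m/m with edgeR or only the compared groups, and 1 for Tet3-/- with DESeq2. With a fold of 2, the Tet3-CD experiment had 3 members for Tet3-/- against Tet3+/+, 1 for Tet3-CD in Tet3+/+ and 3 in Tet3-/-. Where a library was left out, the counts ranged from 2 to 3 (Tet3m/m), 0 to 2 (Tet3-/-) and 1 to 3 (between mutants) on day 3, 6 to 7, 8 to 9 and 7 to 8 with the empty vector, 0 to 1 (Tet3+/+), 0 to 2 (Tet3m/m) and 1 to 4 (Tet3-/-) for Dnmt1, and 0 to 1 (Tet3m/m) and 1 to 4 (Tet3-/-) for the interaction. The causes were not tested.

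No called member changed direction under any alternative. Uncalled members did on day 3: Spry4 in Tet3-/- (0.11 with the replicate block, -0.44 to 0.078 without single libraries), Fgf9 between mutants (0.0027 by DESeq2, -0.25 to 0.24), Etv4 between mutants (-0.088 by edgeR and by DESeq2, -0.30 to 0.78), Fgf4 in Tet3m/m (-0.25 to 0.46), Etv4 in Tet3m/m (-0.29 to 0.80), Fgfr1 in Tet3-/- (-0.24 to 0.48), and Fgf15 (-0.79 to 0.13) and Fgfr1 (-0.15 to 0.57) between mutants. With Dnmt1, so did Fgf9 (0.026 by edgeR and by DESeq2, -0.35 to 0.34), Fgf8 (-0.39 to 0.16) and Spry2 (-0.10 to 0.00073) in Tet3+/+, Fgf9 in Tet3m/m (-0.70 to 0.59) and Spry2 in Tet3-/- (-0.042 to 0.069). After subtraction of the chromosome 8 median, Fgfr1 on day 3 was at 0.25 in Tet3m/m, 0.20 in Tet3-/- and -0.05 between mutants.

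Same-numbered samples did not deviate together (correlations -0.10 to 0.08 over 7 day 3 pairs and -0.05 to 0.03 over 20 pairs of the Dnmt1 experiment), so the replicate numbers were not taken as pairing. With the replicate block, Fgf8 in Tet3m/m on day 3 (log2 fold change 2.15, adjusted p = 0.0646 by limma) and Fgf17 with Dnmt1 in Tet3-/- (0.70, 0.0564) lost their calls. The wild-type empty-vector columns carry no separate numbers, so contrasts with them have no such fit. Depth limits Fgf8 in particular, with 2 reads in the Tet3-/- samples on day 3.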
